A study of Mus musculus with 24 samples.

Results

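The 13 hearts described here carried a cardiac-specific knockout (KO) of EP4, the prostaglandin E2 receptor encoded by Ptger4, and each came with its own ejection fraction (EF) in the labels. They were taken as every KO sample of a series of 24 hearts, whose remaining 11 came from wild-type (WT) mice. All the mice were male and of mixed genetic background, and 1 Illumina array was hybridised with left ventricular RNA from each heart. KO mice were 27 to 33.5 weeks old and WT mice 27 to 33 weeks. The labels give the KO group the alternative name Tg in brackets, without saying what it stands for, and the study's design text calls it a cardiac-specific EP4 knockout. The promoter that drove the knockout, and whether the WT mice carried a recombinase, are not stated in the labels, which name no treatment. The question asked was which transcripts followed EF among KO hearts when EF was read as a continuous number, instead of as the low and high classes of the labels.

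EF is the share of its filled volume that the left ventricle ejects with each beat. As a failing ventricle dilates, its cardiomyocytes return toward a fetal programme, with more slow myosin and natriuretic peptide, and lose enzymes of fatty acid oxidation, which supply most of the energy of the healthy adult heart. Fibroblasts meanwhile deposit collagen and the proteins that organise and crosslink it. EP4 raises cyclic AMP when prostaglandin E2 binds it, and is one of several prostaglandin receptors of the heart.

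EF of the KO hearts ran from 13.7% to 76.4% with a median of 45.9% (42.0 ± 18.7%, SD, n = 13). The 6 hearts labelled low EF (KO-01 to KO-06) lay between 13.7% and 34.0%, and the 7 labelled high EF (KO-07 to KO-13) between 45.9% and 76.4%. WT hearts lay between 71.4% and 86.1% with a median of 81.0%, so the highest KO heart, KO-13, had an EF inside their range. No relation of EF with age within KO passed the test (Pearson r = -0.178, permutation p = 0.557; Spearman rho = -0.276, permutation p = 0.360, n = 13), nor did one with the median intensity of the array (r = 0.045, permutation p = 0.886; rho = 0.071, permutation p = 0.822, n = 13). Without KO-11 the r with intensity was 0.348 (permutation p = 0.271, n = 12). Without the 2 hearts farthest from the median EF, KO-01 and KO-13, the r over the others were 0.00576 with age and -0.219 with intensity. Here and below the p-values are two-sided, and 5 such relations were computed, whose adjusted p-values over 13 hearts were 0.841 for the r with age and 0.886 for that with intensity. The labels do not say that the mice came from separate litters, so the p-values measure the spread between these hearts alone.

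KO-11, with an EF of 60.2%, stood apart from all the other arrays. Its median correlation with the other KO arrays was 0.780, where those of the 12 others were 0.985 to 0.989, and its median raw intensity of 105.6 was the lowest of the KO arrays (122.2 to 154.7 in the others). On 1600 of 25425 probes KO-11 lay more than 2 log2 units below every other KO heart, and on 2 it lay as far above. Of 4590 probes above 10 on the log2 scale in the 12 other KO hearts, 729 (15.9%) lay below the array median of 6.77 in KO-11. Every slope was therefore fitted over all 13 KO hearts and over the 12 without KO-11. A slope is the change in log2 level for a rise of 10 points in EF, given ± its standard error. A probe was called where the adjusted p of limma, by Benjamini-Hochberg over all 25425 probes, was under 0.05. The array labels carry a prefix that was read as the chip. The chips held KO-01, KO-02, KO-05, KO-09 and KO-10 on the first, KO-03, KO-06 and KO-07 on the second, KO-04 and KO-08 on the third, and KO-11, KO-12 and KO-13, the 3 hearts of highest EF, on the fourth. For the fourth chip, EF and chip cannot be told apart.

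Ptger4 itself was not called on EF. Its 1 probe kept for testing measured 6.52 to 7.40 in the 12 KO hearts and 8.00 in KO-11, where WT hearts measured 6.72 to 7.17, all but KO-11 close to the array median. The slope was 0.026 ± 0.034 without KO-11 (adjusted p = 0.774, 95% interval -0.047 to 0.099) and 0.071 ± 0.053 with it (adjusted p = 0.604). A knockout restricted to cardiac cells leaves the gene in other cells, and the place of the probe relative to the deleted part is not known here, so its level does not check the labels. Cardiomyocyte markers were bright throughout, with a mean log2 level of 12.74 (KO-11) to 13.86 in KO and 13.81 to 13.99 in WT hearts. Markers of atrial and conduction cells averaged 9.04 to 10.05 in KO hearts, the highest again in KO-11, and 8.58 to 11.33 in WT hearts.

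At higher EF, 17 of 34 measured genes of fatty acid oxidation, 9 of 19 of pyruvate dehydrogenase and the tricarboxylic acid cycle, and 8 of 16 of branched-chain amino acid and ketone body breakdown were called higher without KO-11, while 11 of 18 collagens were called lower. Without KO-11, 1421 probes (5.59% of those tested) were called, 786 higher (3.09%) and 635 lower (2.50%) at higher EF. They stood for 987 named genes. With all 13 hearts 507 were called (1.99%), 339 higher (1.33%) and 168 lower (0.661%), and all 507 were among the 1421, with no sign turned. With arrays scaled to a common median in place of quantile normalization, 600 were called over 12 hearts, 595 of them among the 1421, and 0 over 13. Over the 12 hearts left when KO-02 was taken out and KO-11 kept, 101 were called. Of the 1421, 1343 (94.5%) had the same sign with KO-11 included. With the chip as a fixed block 581 probes (2.29%) were called over 12 hearts, 301 higher (1.18%) and 280 lower (1.10%), 490 of them among the 1421. It called 0 over 13 hearts, where 2016 had an unadjusted p under 0.05. Leaving out KO-13 lowered the count over 12 hearts to 838, KO-02 to 871 and KO-12 to 889. In tissue RNA such as this, fewer cells of a type and less RNA per cell cannot be told apart.

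The order of the hearts by EF also stood out when EF was not used at all. The first principal component of the 12 KO arrays held 23.5% of the variance and rose with EF (r = 0.917, permutation p = 1e-05, the smallest that the resamples can give; rho = 0.951, permutation p = 2e-05). Both were under 0.05 after adjustment over the 5 relations (5e-05 and 1e-04). KO-01, KO-02 and KO-03, of lowest EF, scored -18.7, -18.9 and -18.2, and KO-13, of highest EF, scored 21.8. KO-08 sat low for its EF of 47.2%, at -7.05, below KO-06 at -3.28. Without KO-01 and KO-13 r was 0.923 (permutation p = 0.00045, n = 10). Within the low label r was 0.870 (exact permutation p = 0.0208, n = 6) and within the high label 0.591 (exact permutation p = 0.203, n = 6). With arrays scaled to a common median in place of quantile normalization, r was 0.407 (permutation p = 0.190, n = 12) and rho 0.643 (permutation p = 0.0273). With KO-11 included the first component held 75.7% of the variance and had r = 0.307 with EF (permutation p = 0.294, n = 13), and the second, with 5.70%, had r = 0.872 (permutation p = 0.00018).

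**Figure D1:**
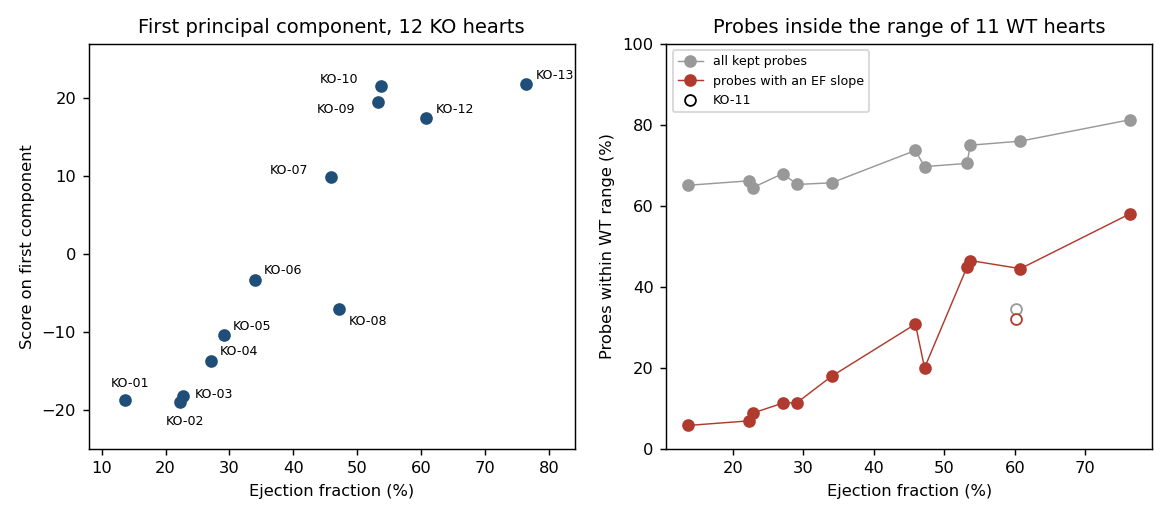
Left: score of each of 12 KO hearts (points) on the first principal component against its ejection fraction in percent; scores run from -18.9 to 21.8 and KO-08 sits below its neighbours in EF. Right: percent of probes whose level in a KO heart lies within the lowest and highest WT value, for all 25425 kept probes (grey) and the 1421 called on EF (red), with KO-11 as open points; the red share runs from 5.77% in KO-01 to 58.1% in KO-13.

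Levels at the top of the EF scale came nearer to those of WT hearts. Of the 1421 called probes, 5.77% lay within the range of the 11 WT hearts in KO-01, 30.8% in KO-07, 44.5% in KO-12 and 58.1% in KO-13. KO-13, whose EF was inside the WT range, thus kept a large share of these probes outside it. Over all kept probes the share in the hearts other than KO-11 ran from 64.5% in KO-03 to 81.3% in KO-13. KO-08 again lay under KO-07, its neighbour in EF. KO-11 had 32.0% of called and 34.6% of all probes in the WT range. The 1421 probes were called on KO hearts alone, but WT arrays counted in the filter that kept probes and in the quantile normalization.

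Whether EF is tracked inside each labelled class was asked by adding the label to the fit. No probe was called on the slope within labels, with 1304 at an unadjusted p under 0.05 over 12 hearts (smallest adjusted p = 0.0887) and 550 over 13. The labels are cut from EF itself, whose SD was 7.0 within the low and 10.4 within the high label, against 18.7 over 13 hearts. Slopes within labels are thus less precise, and the lack of calls cannot decide whether EF is tracked there. Within the low label 83.0% of the 1421 called probes had the sign of their overall slope, and within the high label 96.5%, against 60.1% and 68.2% of all kept probes (the called probes were picked on these hearts, so some agreement in sign follows from the choice). On the first chip, which spans EF from 13.7% to 53.7%, 100% of the called probes kept their sign, against 78.5% of all, and on the 3 others 95.1%, 76.6% and 73.4%, against 65.6%, 56.6% and 57.4%. Without KO-11 the third chip held only KO-04 and KO-08 and the fourth only KO-12 and KO-13. A slope there is the difference between a single pair of hearts. A bend in the relation was not called for any probe by limma's quadratic term (0 over 12 hearts with 1202 at an unadjusted p under 0.05, 0 over 13 with 388).

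With each gene read on the probe of its smallest p over 12 hearts, the 10 steepest rises with EF were Ces1d, Cyp2b10, Inmt, Ccl11, Ky, Scn4b, Cmss1, Fbp2, P2ry1 and Cib3. Ces1d, a carboxylesterase that hydrolyses lipid esters, measured 10.29, 10.09, 9.81, 10.34, 11.23, 11.30, 12.41, 11.08, 12.02, 12.73, 12.17, 12.35 and 12.91 on the log2 scale in KO-01 to KO-13, which are numbered in order of EF. Its levels in the low-label hearts reached 11.30 and met the lowest of the high label, KO-08 at 11.08. The slope was 0.53 ± 0.07 (adjusted p = 0.000946; 0.51 ± 0.07 with KO-11, adjusted p = 0.00757), a fitted 6.17-fold rise over 50 points of EF. KO-13 lay inside the WT range of 12.48 to 13.80, and KO-01 lay below it. Cyp2b10, a cytochrome P450 that oxidises foreign compounds, ran from 7.44 to 10.46 over the 12 hearts (median 8.51) with a slope of 0.48 ± 0.08 (adjusted p = 0.00273; 0.0145 with KO-11), and its other, dim probe gave 0.014 ± 0.023 (adjusted p = 0.833). Inmt, a methyltransferase of indole amines, ran from 7.01 to 10.37 with a slope of 0.43 ± 0.11. It was called over 12 hearts (adjusted p = 0.0264), but not with KO-11 (0.39, adjusted p = 0.119), nor without KO-13 (adjusted p = 0.129), KO-12 or KO-03.

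Further steep rises concern signalling at the cell surface. P2ry1, a receptor for ADP, measured 8.77, 9.17, 8.98, 9.50, 9.10, 9.76, 10.17, 9.74, 9.89, 10.26, 10.83, 10.28 and 10.30 in KO-01 to KO-13. Every KO heart, KO-13 and KO-11 included, was below the WT range of 10.93 to 11.25, and the low-label hearts reached only the lowest of the high label. Its slope was 0.27 ± 0.03 (adjusted p = 0.000946; 0.30 ± 0.04 with KO-11, adjusted p = 0.00851). Scn4b, a beta subunit of voltage-gated sodium channels, ran from 8.78 in KO-05 to 11.31 in KO-10, with a slope of 0.31 ± 0.07 (adjusted p = 0.0164, and 0.0529 with KO-11), and 0.051 ± 0.032 on a dimmer probe (adjusted p = 0.453). Ccl11, the chemokine eotaxin, rose from 6.85 in KO-01 to 9.99 in KO-10 and was 10.37 in KO-11, with a slope of 0.36 ± 0.08 (adjusted p = 0.0109). Here the gene rose toward its WT level of 9.04 to 10.21.

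Fbp2, the muscle fructose bisphosphatase, shows what KO-11 does to a slope. The 12 other hearts ran from 8.39 to 10.41, with all low-label hearts at or under 9.18 and all high-label hearts at or over 9.76, and gave a slope of 0.28 ± 0.05 (adjusted p = 0.00399). KO-11 measured 5.99, and with it the slope was 0.11 ± 0.16 (adjusted p = 0.775). Ky, a muscle protein whose loss causes kyphoscoliosis in mice (0.35 ± 0.06, adjusted p = 0.00486), Cmss1 (0.30 ± 0.03, adjusted p = 0.000631) and Cib3, a calcium- and integrin-binding protein (0.26 ± 0.03, adjusted p = 0.000946), complete the group. These 3 were called with KO-11 as well. Acot1, an acyl-CoA thioesterase, was steeper than Cib3 on its brighter probe (0.27 ± 0.05), but its probe of smallest p gave 0.21 ± 0.04, so it is not among the 10.

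On the same reading the 10 steepest falls with EF were Comp, Ecrg4, Angptl7, Nmrk2, Fam180a, Dkk3, Col8a2, Lox, Nox4 and Prelp, of which most encode secreted or matrix proteins. Comp, a matrix protein best known from cartilage, measured 12.17, 10.97, 10.94, 11.34, 9.35, 8.73, 8.52, 10.35, 8.54, 7.65, 8.65, 8.13 and 9.22 in KO-01 to KO-13. The 4 hearts of lowest EF were the 4 highest, and from KO-05 upward the order was lost, with KO-08 high. The slope was -0.56 ± 0.13 (adjusted p = 0.0185), and it missed the threshold with KO-11 (adjusted p = 0.0575), without KO-01 (adjusted p = 0.0793) and without KO-12. A brighter Comp probe gave -0.63 ± 0.17 (adjusted p = 0.0323; 0.103 with KO-11). Ecrg4, a secreted peptide precursor, fell from 10.72 in KO-01 to 6.94 in KO-10 with a slope of -0.55 ± 0.08 (adjusted p = 0.00172, 6.84-fold over 50 points), and its slope was -0.53 ± 0.09 with KO-11 (adjusted p = 0.0137). Angptl7, a secreted angiopoietin-like protein, had a slope of -0.48 ± 0.12 (adjusted p = 0.0273) that was not called with KO-11 (adjusted p = 0.0837), without KO-01 (adjusted p = 0.117), KO-02 or KO-12. Myh7, the slow myosin heavy chain, and Sfrp1, a secreted Wnt inhibitor, were steeper than Prelp on 1 probe (-0.34 ± 0.07 and -0.40 ± 0.09), but not on their probe of smallest p (-0.32 ± 0.06 and -0.27 ± 0.06).

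Nmrk2, a kinase that makes NAD from nicotinamide riboside, had a different shape. It measured 13.32, 13.50, 13.51, 13.73, 13.68 and 13.65 in the 6 low-label hearts, and 12.89, 13.18, 11.77, 11.69, 12.73, 12.25 and 11.24 in KO-07 to KO-13. The low-label hearts were level with each other and all above the high-label hearts. The slope over 12 hearts was -0.42 ± 0.06 (adjusted p = 0.00147), and KO-13 still lay above the WT range of 8.20 to 10.43. Its quadratic term was not called (adjusted p = 0.997). A further Nmrk2 probe gave -0.41 ± 0.07 (adjusted p = 0.00233), and a dim one gave 0.060 ± 0.025 (adjusted p = 0.198), the only 1 of 13 further probes of these 20 genes with the opposite sign; 8 of the 13 were called in the named direction.

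**Figure D2:**
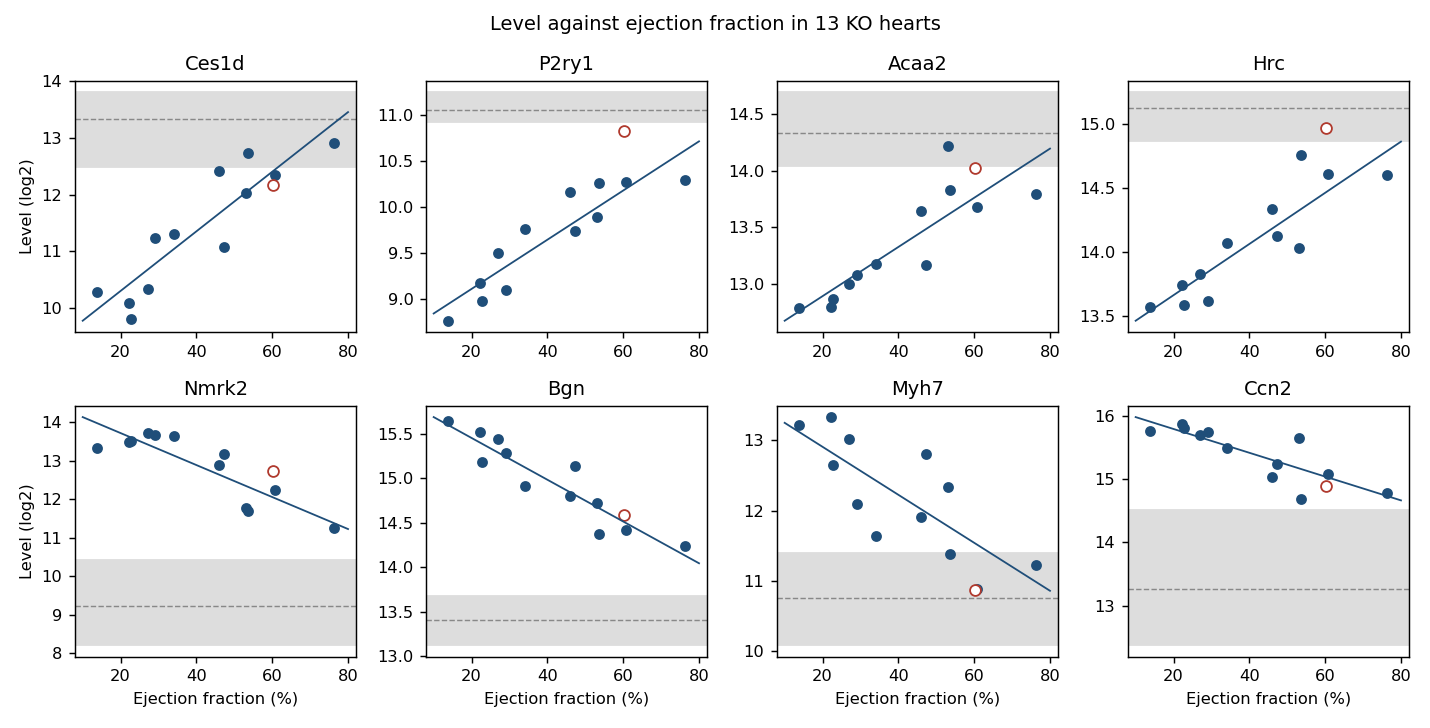
Log2 level against ejection fraction in percent for 8 genes; filled points are 12 KO hearts, the open red point is KO-11, the line is the fit to the 12, the grey band is the range of 11 WT hearts and the dashed line their median. Ces1d, P2ry1, Acaa2 and Hrc rise toward the WT band, and Nmrk2, Bgn, Myh7 and Ccn2 fall toward it, with Nmrk2 flat among the 6 hearts below 35% on the axis.

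Lox and Prelp were called without KO-11, also when any 1 of the 12 was left out, but not with KO-11. Lox, which crosslinks collagen and elastin, ran from 9.46 to 12.40 in the 12 hearts and was 5.90 in KO-11, with slopes of -0.37 ± 0.06 (adjusted p = 0.00287) and -0.55 ± 0.18 (adjusted p = 0.146). Prelp, a leucine-rich proteoglycan that anchors collagen, ran from 12.01 to 14.43 and was 6.06 in KO-11, with slopes of -0.34 ± 0.05 (adjusted p = 0.00197) and -0.62 ± 0.26 (adjusted p = 0.291). Col8a2, a network collagen (-0.37 ± 0.07, and -0.079 ± 0.025 on a dim probe, adjusted p = 0.0743), Dkk3, a secreted relative of Wnt inhibitors (-0.39 ± 0.07), and Nox4, an oxidase that makes hydrogen peroxide (-0.35 ± 0.07), were called both ways, as was Fam180a (-0.40 ± 0.09). Of the 20 genes, 13 were called with KO-11, 14 with the chip as a block over 12 hearts and 17 without KO-01 and KO-13. Within the low label 17 of 20 had the sign of the overall slope, and within the high label 20 of 20; these genes were chosen by their slopes on the same hearts.

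**Figure D3:**
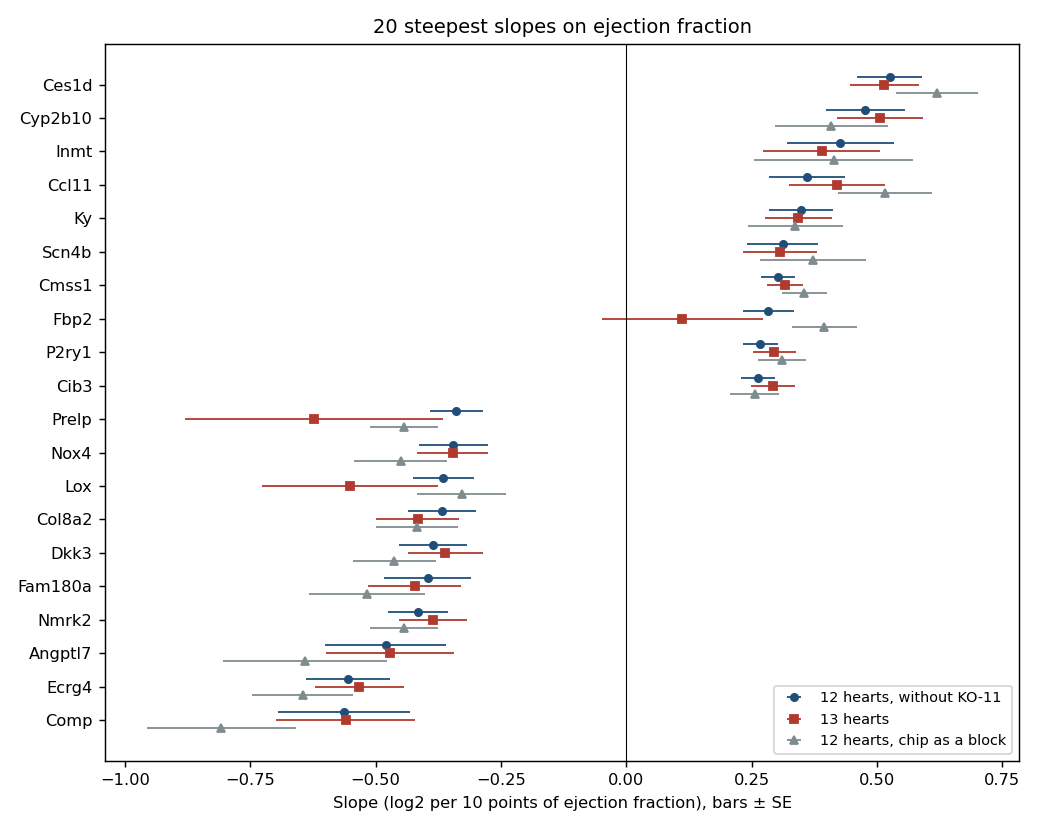
Slope of the 20 steepest genes in log2 units per 10 points of ejection fraction, with bars of 1 standard error, for 12 hearts (blue circles), 13 hearts (red squares) and 12 hearts with the chip as a block (grey triangles). Fbp2, Lox and Prelp have wide bars with KO-11, while the chip-blocked slopes keep the sign in each of the 20 genes.

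Genes used as measures of heart failure split into those that followed EF and those that were not called. Myh7 measured 13.22, 13.33, 12.65, 13.02, 12.09, 11.63, 11.91, 12.80, 12.34, 11.38, 10.87, 10.88 and 11.22 in KO-01 to KO-13. Its level fell by 0.34 ± 0.07 per 10 points (adjusted p = 0.00885; -0.37 ± 0.08 with KO-11, adjusted p = 0.0275), and the last 4 hearts lay in the WT range of 10.08 to 11.40. With the chip as a block its slope was -0.29 (adjusted p = 0.101), and without KO-01 and KO-13 -0.38 (adjusted p = 0.0811). The other 2 Myh7 probes gave -0.33 ± 0.06 and -0.32 ± 0.06, both called. Myh6, the fast form, sat near the top of the scale on its brightest probe (lowest 15.84, median 15.94) and gave 0.014 ± 0.017 there (adjusted p = 0.759), but 0.14 ± 0.03 on its other probe (adjusted p = 0.00674; 0.0221 with KO-11).

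Ccn2, or connective tissue growth factor, ran from 14.69 to 15.88 and fell with EF by 0.19 ± 0.04 (adjusted p = 0.00524; 0.0179 with KO-11), though all KO hearts lay above the WT range of 12.37 to 14.51. Col1a1, a chain of type I collagen, ran from 11.15 to 12.51 and fell by 0.18 ± 0.04 without KO-11 (adjusted p = 0.0178), but missed the threshold with KO-11 (adjusted p = 0.0874) and without KO-13 (adjusted p = 0.0826). Pln, the inhibitor of the calcium pump, was at the threshold over 12 hearts, with 0.11 ± 0.03 (adjusted p = 0.04998), and missed it with KO-11 (adjusted p = 0.143). It passed under 9 of 27 alternative settings.

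Timp1, an inhibitor of matrix metalloproteinases, was high in every KO heart, but its slope on EF was not called. In KO-01 to KO-13 it measured 11.73, 12.13, 14.09, 12.53, 13.57, 13.65, 11.77, 13.42, 11.84, 13.47, 12.95, 12.60 and 11.54, every value above the WT range of 7.94 to 10.07. The slope was -0.12 ± 0.12 (adjusted p = 0.659), with a 95% interval of -0.37 to 0.12. The hearts of lowest and highest EF, KO-01 and KO-13, were among its 3 lowest. The natriuretic peptides Nppa (15.87 to 15.99) and Nppb (15.80 to 16.04), Acta1, skeletal actin, and Ankrd1, a stress-induced ankyrin protein, were near the top of the scale, where differences are compressed, and gave slopes of 0.007 ± 0.017, -0.033 ± 0.019, -0.014 ± 0.031 and -0.016 ± 0.018, none called. Col3a1 (-0.070 ± 0.048), Postn, or periostin (-0.13 ± 0.05), and Atp2a2, the calcium pump (-0.025 ± 0.018), were not called either.

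Genes were then read by list, with 1 probe a gene, the brightest kept one. Over 13002 genes the median slope was -0.001 without KO-11 and 0.003 with it. Of them 6.81% were called without KO-11, 3.55% higher and 3.26% lower at higher EF, and 2.47% with it, 1.61% higher and 0.861% lower. The lists were chosen with earlier results of these data known, and their counts are descriptions. With the chip as a block over 12 hearts, 8 of 18 collagens and 2 of 16 genes of collagen crosslinking were called lower. Metalloproteinases and inhibitors had 0 of 16, and small leucine-rich proteoglycans kept 3 of 9. Called higher were 9 of 34 genes of fatty acid uptake and oxidation and 4 of 19 of pyruvate dehydrogenase and the tricarboxylic acid cycle. So were 2 of 16 of branched-chain amino acid and ketone body breakdown and 1 of 34 complex I subunits. The probe read can decide a call. Of the 101 named genes called over 12 hearts, 45 had 76 further kept probes, of which 35 were called in the same direction, 32 had the same sign without a call and 9 had the opposite sign, none of them called. Those 9 are 6 probes of Asph, an aspartyl hydroxylase (-0.071 to -0.015, against 0.14 on its brightest), and 1 each of Nmrk2, Mmp14 and Ttll1.

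Matrix genes were lower at higher EF. Of 18 measured fibrillar and network collagens, 11 were called lower without KO-11 and 4 with it, none higher, and the median slope was -0.16. All 18 slopes were below 0, from -0.37 (Col8a2) to -0.040. Examples were Col16a1 (-0.24 ± 0.03, adjusted p = 0.00101), Col8a1 (-0.29 ± 0.05, adjusted p = 0.00205) and Col14a1 (-0.19 ± 0.03, adjusted p = 0.00274). Blocking on the chip gave a median of -0.20, and single chips gave -0.22 to -0.065, but the median within the low label was 0.013 and within the high label -0.18. Among 16 genes of collagen crosslinking and processing, 9 were called lower (3 with KO-11), median -0.10, with Loxl1, a relative of Lox, at -0.18 ± 0.03, Bmp1, which trims procollagen, at -0.14 ± 0.02, and P3h2, a collagen prolyl hydroxylase, at -0.22 ± 0.04. Bmp1 was not called with KO-11 (adjusted p = 0.291).

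Of 24 microfibril, elastic and matricellular genes, 12 were called lower (6 with KO-11) and none higher, with a median of -0.14. Elastin (Eln) fell by 0.32 ± 0.05 on its brightest probe, where a dim one gave -0.059 ± 0.036 (adjusted p = 0.424). Mfap4 and Mfap5, which bind elastic microfibrils, fell by 0.31 ± 0.04 and 0.28 ± 0.05, and Fbln2, a fibulin, by 0.18 ± 0.03. On its brightest probe Fbln2 was not called with KO-11 (adjusted p = 0.0948). Small leucine-rich proteoglycans were called lower in 3 of 9 (2 with KO-11). Of them Bgn, or biglycan, measured 15.65, 15.52, 15.18, 15.44, 15.29, 14.91, 14.80, 15.14, 14.72, 14.37, 14.59, 14.42 and 14.24 in KO-01 to KO-13. Each KO heart lay above the WT range of 13.12 to 13.68, and the slope was -0.24 ± 0.03 (adjusted p = 0.000946; -0.23 ± 0.03 with KO-11, adjusted p = 0.00621). Bgn was called under 27 of 27 alternative settings without KO-11 and 25 of 27 with it.

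Around the matrix, 6 of 17 genes of TGF-beta and activin signalling were called lower (2 with KO-11), median -0.10. They included the ligand Tgfb3 (-0.15 ± 0.03), the receptor Tgfbr1 (-0.17 ± 0.03) and the secreted follistatin relatives Fstl3 (-0.23 ± 0.04) and Fstl1 (-0.17 ± 0.03). With KO-11 Tgfbr1 and Fstl1 were called, but not Tgfb3 (adjusted p = 0.384) or Fstl3 (adjusted p = 0.0669). Of 16 metalloproteinases and inhibitors, 4 were called lower (1 with KO-11), among them Mmp2 (-0.18 ± 0.04) and Mmp14 (-0.16 ± 0.03, and 0.071 ± 0.030 on a dim probe, adjusted p = 0.206), with a median of -0.029. Neither Mmp2 (adjusted p = 0.185) nor Mmp14 (adjusted p = 0.129) was called with KO-11. Fibroblast markers were called lower in 5 of 20 (2 with KO-11), median -0.077, with Pi16 at -0.19 ± 0.04 and Cd248 at -0.15 ± 0.03. Mfap5 stands in this list and among the microfibril genes. Cd248 and Mfap5 were called with KO-11, but not Pi16 (adjusted p = 0.057). The mean log2 level of the 20 markers ran from 10.22 (KO-11) to 10.99 in KO and from 9.77 to 10.09 in WT hearts, and its part in the matrix slopes was not tested. Fetal and stress genes of the ventricle were called lower in 6 of 18 (3 with KO-11), median -0.085, Nmrk2, Myh7, Ccn2 and Actn1 (-0.19 ± 0.04), a non-muscle alpha-actinin, being the examples. Of these Actn1 was not called with KO-11 (adjusted p = 0.3965).

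Lists of mitochondrial fuel oxidation had medians above 0. Of 34 genes of fatty acid uptake and oxidation, 17 were called higher without KO-11 and 10 with it, none lower, and the median slope was 0.090. Acaa2, the mitochondrial thiolase that ends each turn of beta-oxidation, measured 12.79, 12.80, 12.87, 13.00, 13.08, 13.18, 13.64, 13.17, 14.22, 13.83, 14.02, 13.68 and 13.79 in KO-01 to KO-13. The first 6 hearts rose in step with EF, and only KO-09 reached the WT range of 14.04 to 14.69. Its slope was 0.22 ± 0.04 (adjusted p = 0.00328; 0.23 ± 0.04 with KO-11, adjusted p = 0.0145), and its 3 other kept probes gave 0.20 to 0.23, all called over 12 hearts. With KO-11 those 3 probes gave 0.23 ± 0.04 (adjusted p = 0.0111), 0.29 ± 0.08 (adjusted p = 0.0969) and -0.12 ± 0.29 (adjusted p = 0.873). Etfdh, which passes electrons from fat oxidation to ubiquinone, ran from 12.50 in KO-01 to 13.38 in KO-13 with a slope of 0.16 ± 0.02 (adjusted p = 0.00101; 0.00859 with KO-11). Mlycd, malonyl-CoA decarboxylase (0.14 ± 0.03), and Slc25a20, the carnitine-acylcarnitine carrier (0.13 ± 0.02), were called both ways. The list's median was 0.082 to 0.14 within the 4 chips, and -0.003 and 0.055 within the low and high labels.

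Of 19 genes of pyruvate dehydrogenase and the tricarboxylic acid cycle, 9 were called higher (4 with KO-11), median 0.084. Dlat, a pyruvate dehydrogenase component, had a slope of 0.12 ± 0.02 (adjusted p = 0.00524), Suclg2, a succinyl-CoA ligase subunit, 0.13 ± 0.03, and Mdh2, malate dehydrogenase, 0.10 ± 0.02. Citrate synthase (Cs) ran from 13.62 to 14.15 in the 12 hearts with a slope of 0.095 ± 0.020 (adjusted p = 0.00991), and a value of 6.17 in KO-11 turned it to -0.25 ± 0.30 (adjusted p = 0.735). Breakdown of branched-chain amino acids and ketone bodies held 8 genes called higher and 1 lower of 16 (4 and 1 with KO-11), median 0.10, with Bckdhb, of the branched-chain dehydrogenase, at 0.15 ± 0.03 and Aldh6a1, of valine breakdown, at 0.12 ± 0.02. The one lower was Auh, of leucine breakdown (-0.14 ± 0.03), on a probe at 7.24 to 8.07; its other probe measured -0.013 ± 0.020.

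Respiratory chain slopes were smaller. All 34 measured complex I subunits had slopes above 0, from 0.021 to 0.12, and 8 were called higher (3 with KO-11), led by Ndufb11 (0.12 ± 0.02, adjusted p = 0.00274; 0.0137 with KO-11). Of 33 subunits of complexes II to V, 3 were called higher and 1 lower (3 and 0 with KO-11): Sdhd (0.12 ± 0.02) and Sdhb (0.10 ± 0.02) of succinate dehydrogenase and cytochrome c (Cycs, 0.099 ± 0.025) rose, and Uqcrfs1 of complex III fell (-0.081 ± 0.022). Among 17 transcriptional regulators of metabolism, 4 were called higher (2 with KO-11): Esrrg, an estrogen-related receptor (0.11 ± 0.02), Rxrg, a retinoid X receptor (0.16 ± 0.03), Tfam, which maintains mitochondrial DNA (0.096 ± 0.021), and Ppargc1a, the coactivator PGC-1alpha (0.094 ± 0.025).

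Glucose genes split. The insulin-responsive transporter Slc2a4 rose with EF from 11.26 in KO-03 to 12.18 in KO-12, by 0.15 ± 0.03 (adjusted p = 0.00424; 0.0189 with KO-11). The basal transporter Slc2a1 fell by 0.18 ± 0.03 over 12 hearts (adjusted p = 0.00607), from 11.11 in KO-05 to 9.92 in KO-13, but measured 11.20 in KO-11 (adjusted p = 0.253 with it). Of the 19 genes of glucose uptake and glycolysis, 5 were called higher and 2 lower (2 and 0 with KO-11), and the median was -0.005.

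**Figure D4:**
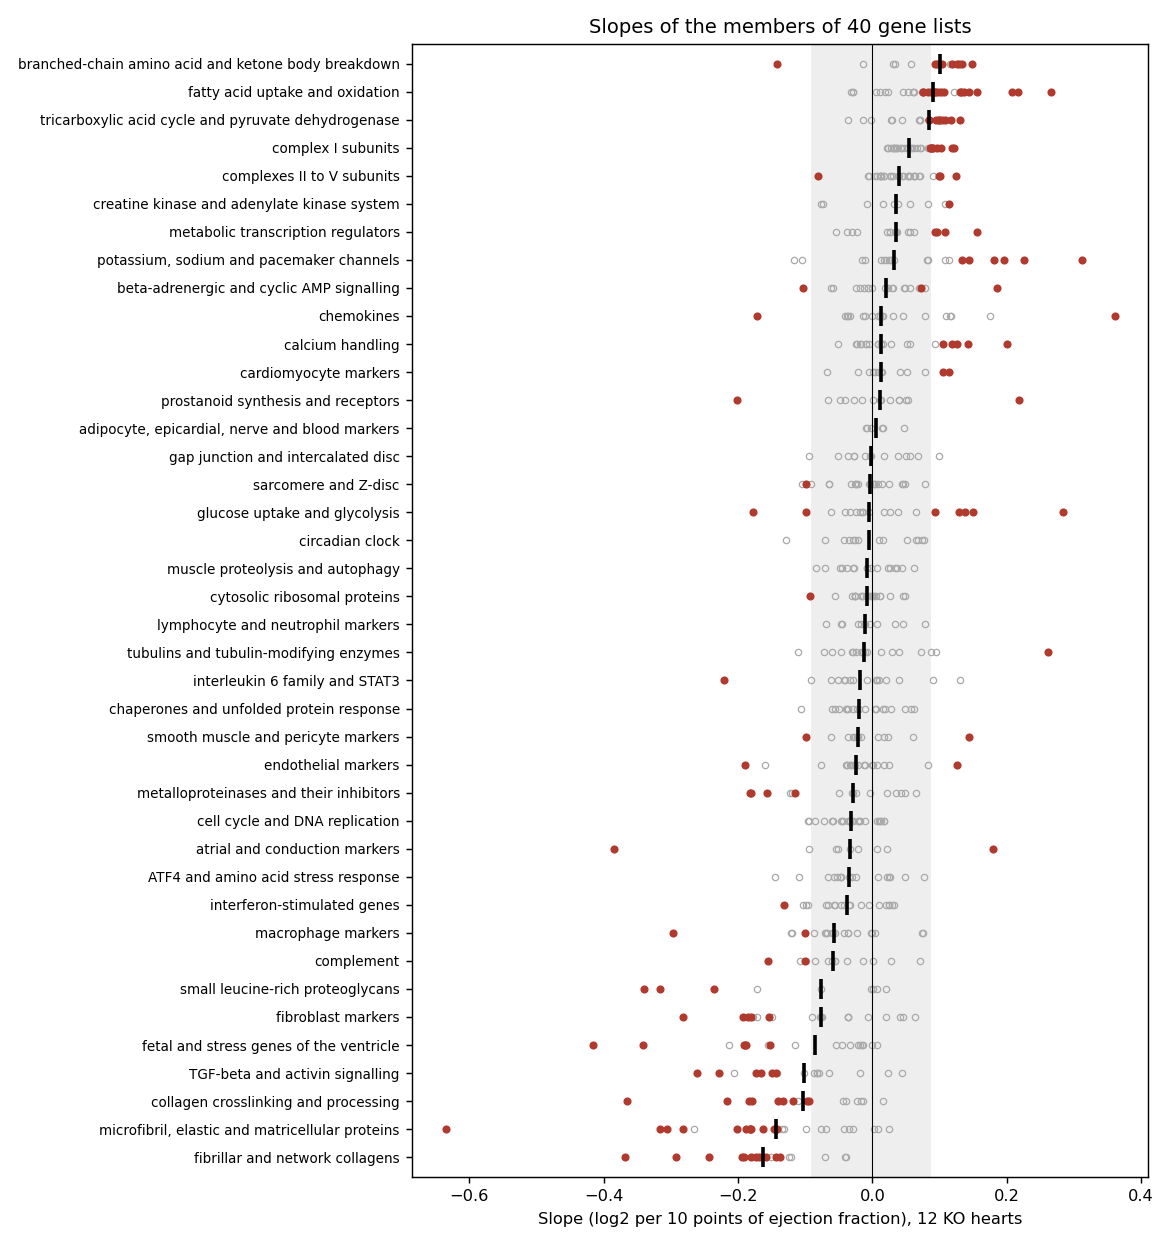
Slope of each measured member (points) of 40 gene lists over 12 KO hearts, in log2 units per 10 points of ejection fraction; red points were called, black ticks are list medians and the grey band, -0.090 to 0.086, runs from percentile 5 to percentile 95 of all 13002 genes. Medians run from 0.10 for branched-chain amino acid and ketone body breakdown to -0.16 for fibrillar and network collagens, while glucose uptake and glycolysis (-0.005) and metalloproteinases with their inhibitors (-0.029) lie between.

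Genes of excitation and calcium handling were called higher in a minority, though in a larger share than the 3.55% of all 13002 genes over 12 hearts. Of 21 channel genes 6 were called higher (2 with KO-11) and none lower, median 0.033. Kcnd2, the Kv4.2 subunit of the transient outward current, ran from 8.43 to 9.74 in 12 hearts, all below the WT range of 10.22 to 10.90, with a slope of 0.23 ± 0.03 (adjusted p = 0.00101); KO-11 measured 7.07, and with it the slope was 0.12 ± 0.10 (adjusted p = 0.632). Kcnv2, a modifier subunit (0.20 ± 0.04), and Abcc9, of ATP-sensitive channels (0.14 ± 0.03), were called both ways. Of 21 calcium genes 5 were called higher (3 with KO-11), median 0.012. Hrc, which binds calcium inside the sarcoplasmic reticulum, measured 13.57, 13.74, 13.59, 13.83, 13.62, 14.07, 14.34, 14.13, 14.03, 14.76, 14.97, 14.61 and 14.60 in KO-01 to KO-13. KO-11 alone reached the WT range of 14.87 to 15.25, and the slope was 0.20 ± 0.03 (adjusted p = 0.00196; 0.0123 with KO-11). Sarcomere and Z-disc genes had 1 of 22 called lower, Des, or desmin (-0.098 ± 0.026), and none with KO-11, although many are near the top of the scale.

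Of 15 measured genes of prostanoid synthesis and reception in general, 1 was called higher and 1 lower over 12 hearts. Over all 13002 genes 6.81% were called. Ptgis, prostacyclin synthase, ran from 11.49 to 12.61 and fell with EF by 0.20 ± 0.03 (adjusted p = 0.00143; 0.0158 with KO-11), all KO hearts lying above the WT range of 10.41 to 11.10. Pla2g5, a secreted phospholipase A2, ran from 6.91 to 8.47 and rose by 0.22 ± 0.04 (adjusted p = 0.00422; 0.0170 with KO-11). Ttll1, a subunit that adds glutamate chains to tubulin, rose by 0.26 ± 0.04 (adjusted p = 0.00335), from 8.67 in KO-03 to 10.61 in KO-13, all below the WT range of 11.32 to 11.75, and a dim Ttll1 probe measured -0.013 ± 0.026. It was the 1 called of 18 tubulins and tubulin-modifying enzymes, again beside 6.81% of all genes.

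Counts in the lists of immune cells and of stress stand beside the 6.81% of all 13002 genes called over 12 hearts, 3.55% higher and 3.26% lower. Macrophage markers had 2 of 20 called lower over 12 hearts, Lgals3, or galectin-3 (-0.30 ± 0.06, adjusted p = 0.00723), and C1qb (-0.10 ± 0.03, adjusted p = 0.0430), and 1 with KO-11. The C1qb call was lost in 10 of the 12 fits that left out 1 heart (-0.045 without KO-13, adjusted p = 0.484), and passed under 11 of 27 alternatives. For the macrophage markers the mean log2 level was 9.83 to 10.40 in KO and 8.94 to 9.48 in WT hearts. Of 20 interferon-stimulated genes 1 was called lower (Bst2, -0.13 ± 0.04), of 14 complement genes 2 (C4b, -0.16 ± 0.04, and C1qb), and of 20 chemokines 1 was higher (Ccl11) and 1 lower (Cx3cl1, -0.17 ± 0.03). Of 23 cytosolic ribosomal protein genes 1 was called, Rpl3 (-0.092 ± 0.024). With KO-11, Ccl11 alone was called among the interferon, complement, chemokine and ribosomal protein lists. By limma none of 24 cell cycle, 17 ATF4 and amino acid stress, 19 chaperone, 17 proteolysis and autophagy or 14 clock genes was called over 12 hearts. Of these 91 genes, read on 1 probe each, 10 had an unadjusted p under 0.05. So did 4669 of all 25425 kept probes in the same fit, a count that takes in every kept probe, dim and unnamed ones included. The medians of these lists lay between -0.035 and -0.006.

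Not all calls stood when a heart was left out of the 12. Of the 101 named genes called, 74 were called in each of the 12 such fits and 27 lost the call in at least 1. Leaving out KO-13, of highest EF, ended the call of 20, and leaving out KO-01, of lowest EF, that of 13. KO-12 and KO-02 each ended more calls than KO-01 and fewer than KO-13. Most open to this were C1qb, Pln, Prkaca and Grk5, then Ppargc1a and Uqcrfs1 (lost in 7 fits each). Bst2, C4b, Des and Rpl3 lost the call in 6 each, and all of these slopes were 0.16 or less in size. Mmp2, Cycs and Plvap, a protein of fenestrated capillaries, lost theirs in 3 fits each, and Bckdhb, Kcnv2, Sdhb and Prox1, a lymphatic transcription factor, only without KO-13. Grk5 and Prkaca, kinases of beta-adrenergic signalling, were called over 12 hearts but lost the call in 8 and 9 fits.

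Whether the slope differs between KO and WT hearts was tested with an interaction term. WT hearts span 71.4% to 86.1% in EF, and no probe was called on their own slope (2343 at an unadjusted p under 0.05). By limma 0 probes were called on the difference over 24 hearts, with 1402 at an unadjusted p under 0.05, and 2 over 23 hearts without KO-11 (0.00787% of those tested), 1 with a higher slope in KO (0.00393%) and 1 with a lower one (0.00393%). For Ces1d the WT slope was 0.29 and the KO minus WT difference 0.23 (adjusted p = 0.813), for Acaa2 0.25 and -0.031 (adjusted p = 0.966), and for Bgn -0.10 and -0.13 (adjusted p = 0.767). The narrow range of WT EF limits what this test can show.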

How the data were processed

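RNA of 24 left ventricles was measured on Illumina mouse arrays. Fluorescence intensity, as deposited by the authors without normalization, was used; BeadStudio (version not given) and R 2.8.0 stand in the submitters' processing notes. The authors' normalized values, deposited on a log2 scale, served as an alternative, and their summary of group means was not used. In limma 3.58.1 (R 4.3.3, with the package data.table at 1.17.8), intensities were corrected with normexp (offset 50), taken to log2 and quantile-normalized over 24 arrays. Probes above the array median in at least 6 arrays were kept (25425 of 45281), and 52.7% of them had a KO mean under 8. The number of arrays limits the precision, as there is no read depth. Each probe's level was regressed on EF per 10 points (lmFit, eBayes). Symbols came from the platform annotation, updated through RefSeq, for 34885 probes with 1 symbol; 18 had several and 10378 none.

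The members and lists were chosen with earlier results of these data known. Named genes were the 10 steepest slopes each way among genes with a usable symbol, each on its probe of smallest p without KO-11, called without KO-11, of the same sign over 13 hearts and above the array median on at least 6 KO arrays, the 14 genes of heart failure, and up to 4 members of each list described with the smallest p. A further probe of a named gene is printed where it has the opposite sign and for some where it was not called. Acot1 and Sfrp1 were named after their values were seen. Of 847 list members, 764 were on the array and 699 kept. Correlations used 100000 resamples, and all permutations where n was 6. The slope fit was tested on simulated data.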

Additional observations from a re-analysis of the deposited data

Results flagged for a closer look

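For 2 genes the slope on EF differed between KO and WT hearts by limma's interaction term over 23 hearts without KO-11 (adjusted p = 0.0343 for each), and over 24 hearts for neither (adjusted p = 0.143 and 0.213). Mybphl, a myosin-binding protein of atrial and conduction muscle, had a KO minus WT difference of 3.014 ± 0.481 log2 units per 10 points of EF. In WT hearts its slope was -2.95 ± 0.61, with 10.88 and 11.15 in WT-10 and WT-11 (EF 71.4% and 75.2%), 8.93 and 8.33 in WT-08 and WT-09, and 6.44 to 7.18 in the 7 others, while the 12 KO hearts measured 6.52 to 7.11 and KO-11 8.09. The mean log2 level of 9 atrial and conduction markers ran from 8.58 to 11.33 in WT and from 9.04 to 10.05 in KO hearts, and its part in this difference was not tested. Urah, a hydrolase of urate breakdown, had a difference of -0.6839 ± 0.114, with a slope of 0.77 ± 0.13 in WT and 0.091 ± 0.022 in KO hearts. Its WT levels ran from 7.57 in WT-10, of lowest EF, to 8.86 in WT-01, and its KO levels from 7.38 to 8.10 in 12 hearts, with 8.18 in KO-11.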

How the results depend on the processing

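Counts of called probes over 13 hearts (507) were the least stable. They were 844 with probes required above the array median in all KO arrays, 795 with age as a covariate, 1942 with array weights, 1113 in one fit with WT hearts, 117 without KO-01 and KO-13, and 0 under median scaling or a fixed chip block. Leaving out 1 heart gave 101 (KO-02) to 1421 (KO-11); the count was 154 without KO-01, 238 without KO-03 or KO-12, 261 without KO-05, 283 without KO-04 and 311 without KO-10. Over 12 hearts (1421) it was 600 with median scaling (332 higher, 268 lower), 581 under the chip block, 593 without KO-01 and KO-13, 838 to 1493 leaving out 1 heart, and 1154 to 2062 under the 12 other settings, of which quantile normalization without KO-11 (1408) was chosen after seeing the data.

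The KO minus WT slope called 0 probes, 1 under a fixed chip block, 2 without KO-11 and 0 with a replicate block (smallest adjusted p = 0.260); the numbers that KO and WT hearts share follow no stated pairing. Within KO no paired analysis was possible because each number occurs once. The first component had r = 0.407 with median scaling and 0.307 with KO-11. Without KO-01 and KO-13, r with EF turned to 0.00576 for age and -0.219 for array intensity.

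Of the slopes of the named genes recomputed under each alternative, 2717 kept side and direction over 12 hearts, 262 lost the threshold and 2 turned. Over 13 these were 2389, 427 and 9, and 156 newly passed. Those that turned were not called over the same set of hearts with the settings of the report. Cs (0.095, adjusted p = 0.00991 by limma) and Timp2 (-0.11, adjusted p = 0.0268), which turned over 13 hearts, were called over 12. Over 12 hearts Acta1 turned (0.025 with the chip, and -0.062 to 0.027 leaving out 1 heart). Over 13 Acta1 (0.041), Col3a1 (0.10), Timp2 (0.016) and Cs (0.32) turned with the chip. Cs also turned with array weights (0.081) and leaving out 1 heart (-0.46 to 0.095, the latter without KO-11). Myh6 (-0.0295) and Nppa (-0.010) turned with median scaling, and Timp1 leaving out 1 heart (-0.219 to 0.0056, the latter without KO-13). List medians turned over 13 hearts for calcium handling with median scaling (-0.022) and interferon-stimulated genes with the filter on all KO arrays (0.0046). The cause was not tested. Signals near the top of the scale limit what slopes of the brightest probes can show.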

Other observations

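A few genes outside the main groups also followed EF among KO hearts. Adra1b, the alpha-1B adrenergic receptor, ran from 6.69 to 7.81 in the 12 hearts, was 7.93 in KO-11, and rose with EF by 0.19 ± 0.03 log2 units per 10 points (adjusted p = 0.00284; 0.0145 with KO-11). Lbp, which binds bacterial lipopolysaccharide, fell from 10.26 in KO-01 to 8.70 at its lowest, by 0.22 ± 0.04 (adjusted p = 0.00356; 0.0495 with KO-11), and was the 1 gene called of 16 in the list of the interleukin 6 family and STAT3. Of 20 endothelial markers 1 was called higher and 1 lower over 12 hearts, beside 6.81% of all 13002 genes called. Prox1, a transcription factor of lymphatic vessels that cardiomyocytes also express, rose by 0.13 ± 0.03 (adjusted p = 0.0150; 0.0318 with KO-11). Its other, dimmer probe gave 0.055 ± 0.029 (adjusted p = 0.333). Plvap, a protein of fenestrated capillaries, fell by 0.19 ± 0.05 (adjusted p = 0.0232), but was not called with KO-11 (adjusted p = 0.0980). Within the atrial and conduction list Dkk3 fell and Stard10, a lipid transfer protein, rose by 0.18 ± 0.03 (adjusted p = 0.00398; 0.0223 with KO-11), and 7 of the 9 measured members were not called.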
